A study of Mus musculus with 12 samples.

Results

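RNA-seq of whole livers was compared between mice with sepsis from cecal ligation and puncture (CLP) and sham-operated mice. These livers are the 8 of the 12 sequenced that are labelled with CLP or with sham surgery alone, 4 mice each. The other 4 livers, from CLP mice that also received dichloroacetate, were not part of the fit. In CLP the cecum is tied off and pierced so that gut bacteria enter the abdomen, while the abdomen of sham mice was opened and closed with the cecum left intact. All 8 mice were male C57BL6J animals of 8 to 10 weeks, they were given subcutaneous saline, and their livers were taken 30 hr post-surgery. The labels mention injections 24 hr after surgery but name no vehicle for the CLP and sham mice. The question of the comparison is which liver transcripts had changed by the tolerant stage of sepsis. Only a single time point was sampled and the RNA came from whole tissue.

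The liver answers infection by secreting acute phase proteins into the blood. Endotoxin and the cytokines IL-1 and IL-6 act on hepatocytes through NF-kB, C/EBP and STAT3 to switch these genes on, and hepatocytes lower many of their metabolic genes at the same time. Whole liver also holds Kupffer cells, endothelium, stellate cells, bile duct cells and blood leukocytes, and in bulk samples fewer cells of a type and less RNA per cell cannot be told apart.

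Reads counted on genes numbered 24436513 to 44266819 per CLP mouse and 25442410 to 37757671 per sham mouse. Levels are in CPM, the read count of a gene per 1e6 reads of TMM-scaled library size, which compare a gene between mice but not genes of unlike length. The hepatocyte markers summed to 79256 to 98638 CPM in CLP and 93169 to 115850.0 CPM in sham, as the tissue label states. Alb, the gene of albumin, took the most reads in each sham mouse and Hpx, the gene of the heme scavenger hemopexin, in each CLP mouse. Reads were also concentrated on fewer genes in CLP. The most abundant genes that together hold 50% of the reads numbered 85, 41, 129 and 46 in CLP-1 to CLP-4 and 162, 176, 171 and 141 in sham-1 to sham-4.

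The CLP-3 liver stood apart, with skeletal muscle RNA. The 27 listed muscle genes summed to 3822 CPM in CLP-3 and to 20.9 to 32.0 CPM in the other 7 livers. Markers of stellate cells and fibroblasts, some of which muscle also expresses, summed to 272, 272, 561 and 194 CPM in CLP-1 to CLP-4 and to 152 to 244 CPM in sham. Results are given with CLP-3, and values without it stand beside a number of them. T and NK cell markers summed to 3.31, 2.71, 3.67 and 1.65 CPM in CLP and 3.29 to 6.09 CPM in sham, mesothelium markers to 4.9, 5.56, 12.2 and 0.715 and 1.48 to 5.33 CPM, and pancreas markers to 7.52, 7.13, 12 and 7.56 and 7.22 to 13.3 CPM. Of the genes tested, 0 of 5 muscle genes and 1 of 5 mesothelium genes (0 of 4 without CLP-3) rose, and 1 of 4 T and NK cell genes fell (2 without CLP-3). The filter asks for enough reads in 4 mice, so muscle genes high in CLP-3 alone, such as Acta1 with 27929 reads there, were not tested. The count of muscle genes therefore cannot show how this RNA bears on the calls. Single tested markers of fat, intestinal epithelium and red blood cells gave 0, 0 and 1 fallen gene and none risen, and 1 of 3 platelet markers rose (0 without CLP-3). The red cell marker was Alas2. The hemoglobin genes Hba-a1, Hba-a2, Hbb-b1, Hbb-b2, Hbb-bs and Hbb-bt were counted at 0 reads in all 8 livers, so this list says little about red cells. The plot of other cell markers shows each liver.

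**Figure D1:**
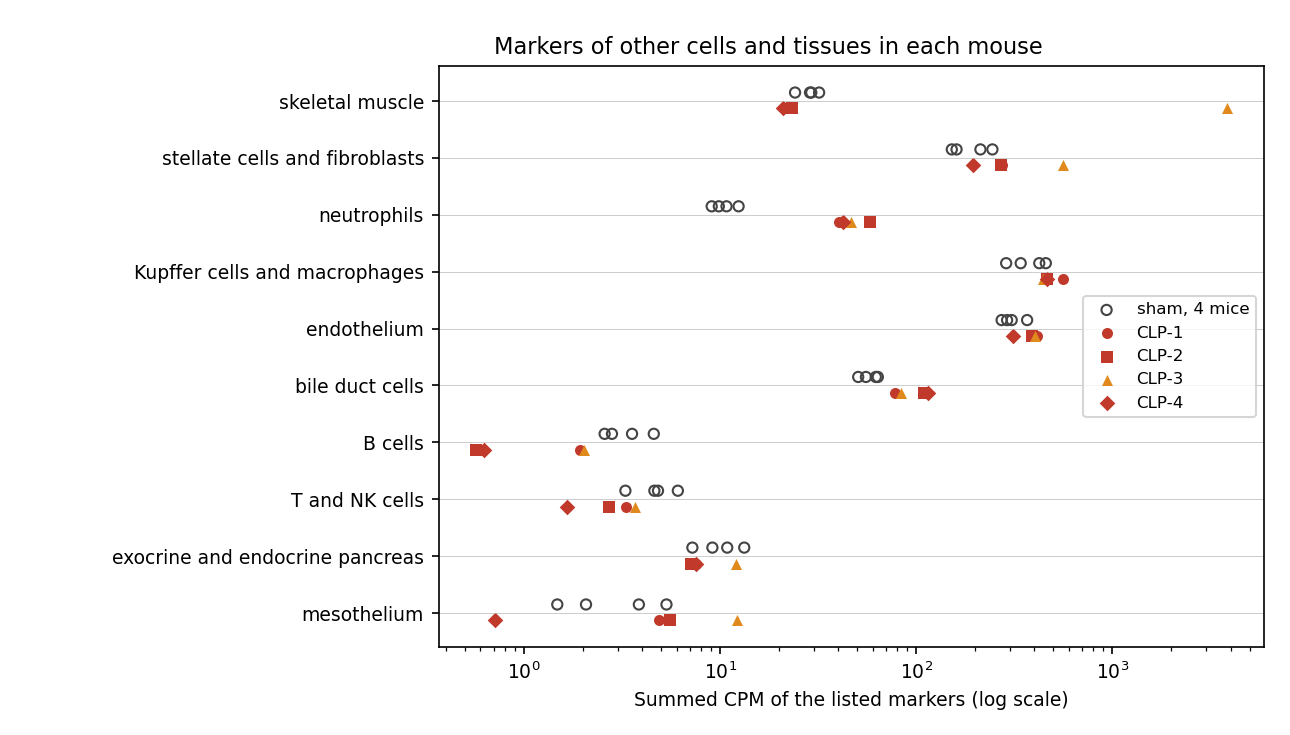
Summed CPM (log scale) of the listed markers of other cells and tissues in each mouse, with open circles for the 4 sham mice and filled symbols for CLP-1 to CLP-4. Skeletal muscle markers sum to 3822 CPM in CLP-3 and to at most 32.0 CPM elsewhere, and neutrophil markers are higher in all 4 CLP mice than in all 4 sham mice.

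In CLP versus sham, 2387 of the 13079 genes tested (18.3%) were differentially expressed by edgeR's quasi-likelihood test at a Benjamini-Hochberg false discovery rate of 0.05. Of these, 1211 (9.26%) were higher and 1176 (8.99%) lower in CLP. At least 2-fold were 495 (3.78%) of the higher and 215 (1.64%) of the lower genes. All later counts of list members use this test, are read against these percentages, and call a gene risen or fallen only where it passed. With library size alone in place of TMM normalization, the median log2 fold change of all genes moved from 0.015 to -0.155 and the split became 702 higher and 1617 lower. With 1 mouse left out, the calls ranged from 533 without sham-1, over 778, 820 and 867 without sham-2, sham-3 and CLP-4, and 1371, 1407 and 1995 without sham-4, CLP-2 and CLP-1, to 3556 without CLP-3. List counts moved too. Without sham-1, 285 of 13316 tested genes were higher and 248 lower. Without CLP-3, 1853 of 13021 were higher (14.2%) and 1703 lower (13.1%). A list count with a mouse left out is therefore read against the totals of its own fit, with which it moves. Beside most lists stands the left-out range, the lowest and highest count with 1 mouse left out, with the mouse, for the direction with more calls. The list counts that moved by more than 1.5 times and are given without a range were of 3 or fewer genes and moved by at most 2 genes. The 4 CLP values did not overlap the 4 sham values for 3455 genes (26.4%).

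Genes were ranked by their mean CPM over the 8 mice. Of the 100 most abundant genes, 27 rose and 15 fell, of the next 400, 35 rose and 89 fell, and of the next 1500, 130 rose and 283 fell. Beyond rank 5000, 818 of 8079 genes rose (10.1%) and 449 fell (5.56%), 390 of the risen ones at least 2-fold. The filter on low counts asks for enough reads in 4 of the 8 mice, so that a scarce gene can be tested through its reads in 1 group, and its part in this split was not tested. The 10 abundant plasma protein genes with the largest CPM gains, led by Hpx, Hp and Saa2, took 21.9, 31.1, 18.2 and 28.5% of the reads in CLP-1 to CLP-4 and 10.9 to 12.4% in sham. The 1176 lower genes together took 8.19 to 14.7% of the reads in CLP and 21.7 to 23.3% in sham. The plot of fold change by expression shows all genes.

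**Figure D2:**
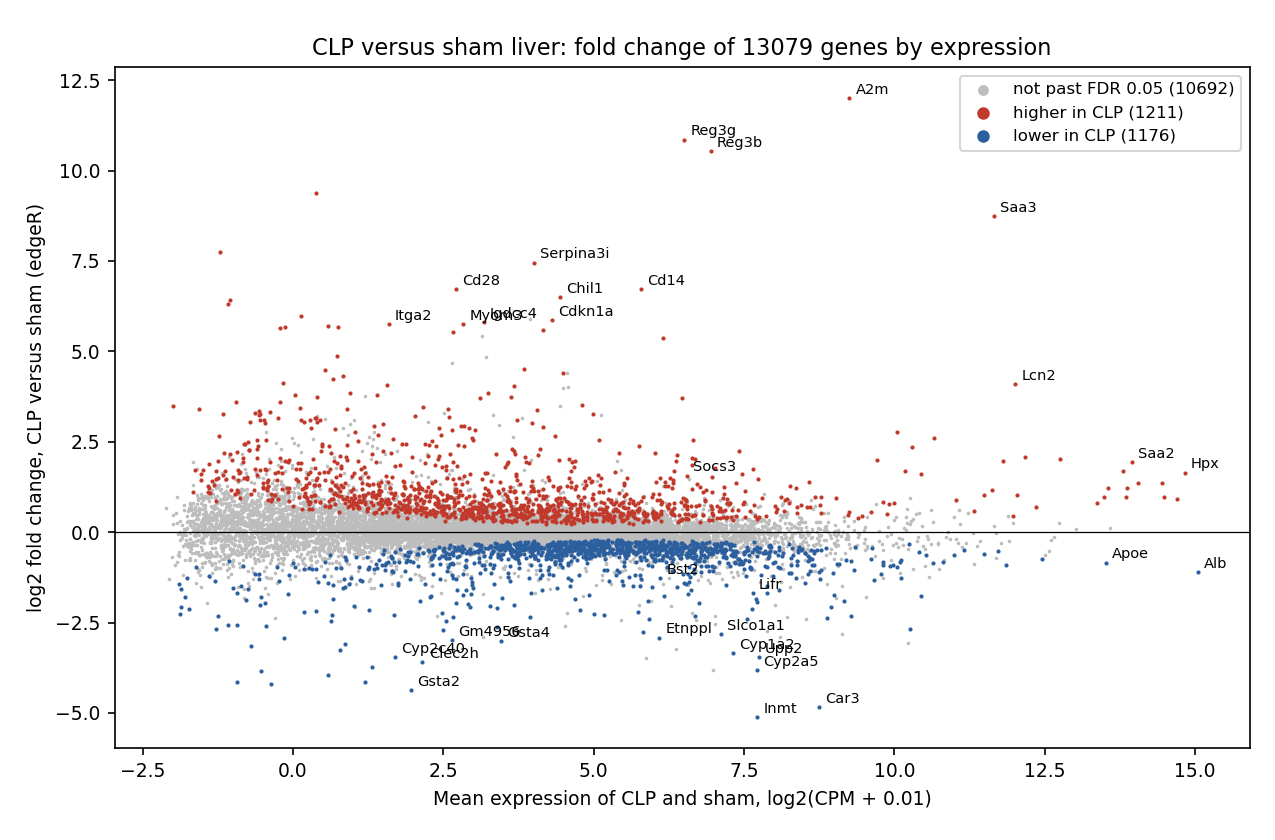
log2 fold change of CLP versus sham (y axis) against the log2 of the mean CPM plus 0.01 (x axis) for 13079 genes, red where higher and blue where lower at a false discovery rate of 0.05, with named genes labelled. A2m reaches 12, Reg3g and Reg3b exceed 10, and Hpx and Alb are the most abundant genes that changed.

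The CLP mice differed among themselves more than the sham mice did. The median SD of log2 CPM was 0.214 in CLP, 0.189 without CLP-3, and 0.154 in sham. CLP-2 lay farthest from sham for 790 of the 1211 higher genes (65.2%) and for 766 of the 1176 lower genes (65.1%), and CLP-3 lay nearest to sham for 662 and 768 of them. On the first principal component, which held 74% of the variance of log2 CPM over the 500 most variable genes, the CLP mice were at -11.15, -52.57, -11.04 and -38.34 and the sham mice at 26 to 30.61. CLP-2 and CLP-4 thus lay far from sham in most groups of genes below, and CLP-1 and CLP-3 nearer to it. CLP-2 and CLP-4 were also the shallowest CLP libraries, whose part in this was not tested.

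**Figure D3:**
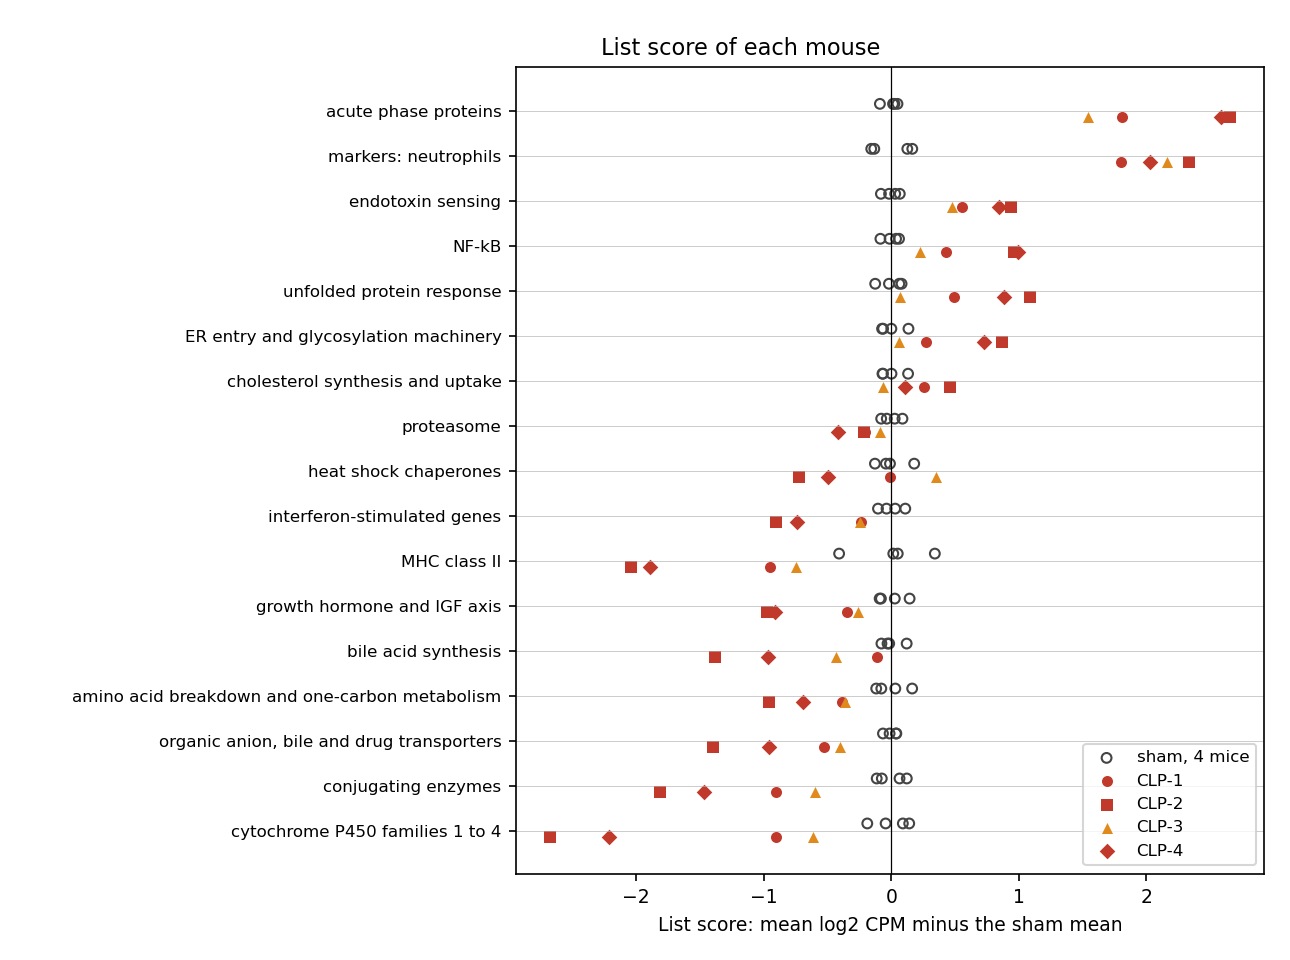
Score of 17 gene lists (mean log2 CPM of the tested genes less the sham mean, x axis) in each mouse, with open circles for sham and filled symbols for CLP. CLP-2 and CLP-4 lie farther from sham than CLP-1 and CLP-3 in most lists, while the 4 CLP mice lie close together in neutrophil markers.

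Among genes of at least 5 CPM in a group and without overlap between groups, A2m had the largest rise. A2m, the gene of the protease inhibitor alpha-2-macroglobulin (NCBI Gene 232345, chromosome 6 from 121636173 to 121679238), had 0.259, 0.246, 0.287 and 0.377 CPM in sham and 267, 2083, 189 and 2335 CPM in CLP-1 to CLP-4. Its log2 fold change was 12 (SE 1.27, adjusted p = 0.00474). Reg3g and Reg3b, both on chromosome 6, which encode secreted antibacterial lectins, had 94.2, 324, 123 and 187 and 153, 385, 148 and 302 CPM in the same 4 mice. In sham they had at most 7 and 12 reads, so that they passed the filter on low counts through CLP. Their log2 fold changes were 10.85 and 10.55 (adjusted p = 0.000447 and 0.000153).

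The other genes of this kind had varied roles. Serpina3i rose by 7.45 on the log2 scale, Chil1, which encodes a chitinase-like secreted protein, by 6.51, Igdcc4 by 5.8 and Itga2, an integrin subunit, by 5.76. These folds start near the floor, from sham means of 0.179, 0.464, 0.305 and 0.104 CPM. Serpina3i had 1.13, 89.5, 7.32 and 30.0 CPM in CLP-1 to CLP-4 (SE 1.54, adjusted p = 0.0214). Itga2 had 0.850, 14.6, 1.55 and 6.62 CPM (SE 1.13, adjusted p = 0.0184). Myom3, a muscle gene by name, rose by 5.76, with 3.77, 28.7, 7.67 and 15.6 CPM in CLP-1 to CLP-4, so that CLP-3 was not its highest mouse. Cd28, known as a co-receptor of T cells, had 0.111, 0.0737, 0.0956 and 0.189 CPM in sham and 1.24, 32, 2.65 and 15.8 CPM in CLP (log2 fold change 6.71, adjusted p = 0.0194). The T cell genes Cd4 and Lck had 0.193 ± 0.0922 and 0.337 ± 0.0473 CPM in CLP and 0.454 ± 0.0501 and 0.599 ± 0.0715 CPM in sham (mean ± SD, n = 4 each), with log2 fold changes of -1.12 (adjusted p = 0.0520) and -0.81 (adjusted p = 0.0458).

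Promoters were read for 7 of the 12 largest rises, and those of the first 4 by size are shown to let their sequences be read beside the values. Given are the 250 bases before the start of each gene in RefSeq on GRCm38.p6, the mm10 assembly, 5′ to 3′ on the gene's strand, with matches to 4 motifs in capitals. The motifs, searched on both strands, were the NF-kB consensus, TTCNNNGAA for STAT factors, TTGCNNAA for C/EBP and TATAAA for a TATA box.
Reg3g: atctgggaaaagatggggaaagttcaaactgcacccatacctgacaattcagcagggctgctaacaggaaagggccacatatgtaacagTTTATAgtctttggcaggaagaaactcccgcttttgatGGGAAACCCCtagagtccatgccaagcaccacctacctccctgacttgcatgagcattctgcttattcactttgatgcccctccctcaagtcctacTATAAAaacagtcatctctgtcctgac
Reg3b: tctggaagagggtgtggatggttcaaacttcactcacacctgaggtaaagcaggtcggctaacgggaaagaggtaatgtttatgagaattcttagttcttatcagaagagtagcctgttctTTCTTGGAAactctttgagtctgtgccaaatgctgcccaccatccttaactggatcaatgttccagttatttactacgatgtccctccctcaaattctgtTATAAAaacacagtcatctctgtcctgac
Saa3: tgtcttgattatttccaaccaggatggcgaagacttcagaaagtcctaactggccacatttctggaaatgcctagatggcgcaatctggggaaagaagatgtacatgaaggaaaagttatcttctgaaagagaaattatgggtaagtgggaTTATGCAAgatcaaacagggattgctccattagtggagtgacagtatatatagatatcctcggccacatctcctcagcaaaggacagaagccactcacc
Serpina3i: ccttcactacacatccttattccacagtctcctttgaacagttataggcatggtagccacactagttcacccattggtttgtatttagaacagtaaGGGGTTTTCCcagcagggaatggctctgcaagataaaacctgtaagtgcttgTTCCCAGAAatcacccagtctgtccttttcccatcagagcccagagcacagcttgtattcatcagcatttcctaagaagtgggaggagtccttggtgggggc
They lie at chr6:78468875-78469124 on the minus strand (Reg3g), chr6:78370635-78370884 on the plus strand (Reg3b), chr7:46715677-46715926 on the minus strand (Saa3) and chr12:104262872-104263121 on the plus strand (Serpina3i).

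In these windows, Reg3g held an NF-kB match 123 to 114 bases before its start and TATAAA on either strand at 161 to 156 and 27 to 22 bases before it. Reg3b held a STAT match at 129 to 121 bases and TATAAA at 29 to 24 bases. Saa3 held a C/EBP match at 99 to 92 bases. Serpina3i held an NF-kB match at 154 to 145 and a STAT match at 102 to 94 bases. Among 9755 tested genes with a promoter in the same annotation, the NF-kB motif was in 8.73%, the STAT motif in 6.13%, the C/EBP motif in 7.80% and TATAAA in 6.86%. In the promoters of the 341 genes at least 2-fold higher that were matched, these shares were 13.5, 9.09, 14.7 and 10.3%, and in those of 156 at least 2-fold lower, 10.3, 5.13, 14.1 and 8.97%. Of the promoters not printed, that of Igdcc4 held an NF-kB match 173 to 164 bases before its start, and those of Cdkn1a and Myom3 held 0 matches. A match is a description of letters and not a site of binding.

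Among the sensors of bacterial products, Cd14 led the rises. Of 22 tested genes of endotoxin sensing, 6 rose and 0 fell, with a median log2 fold change of 0.34. The left-out range was 1 without sham-1 to 9 without CLP-3. Cd14, the endotoxin co-receptor, had 0.814, 0.810, 1.43 and 1.05 CPM in sham and 8.94, 292, 23.9 and 111 CPM in CLP-1 to CLP-4, all CLP values being higher. Its log2 fold change was 6.72 (SE 1.22, adjusted p = 0.0160). Lbp, which carries endotoxin to CD14, rose by 1.38, Tlr2, the receptor of bacterial lipoproteins, by 2.38, and its partner Tlr6 by 0.86. Irak3, an inhibitor of this signal, rose by 3.17, and the adaptor Myd88 by 0.50. Tlr4, the endotoxin receptor, had 2.5 ± 0.446 CPM in CLP and 1.81 ± 0.468 CPM in sham (adjusted p = 0.141).

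Some receptors of the IL-1 and IL-6 families rose and others fell. Of 21 genes of this signalling, 11 rose and 2 fell (median 0.39), with a left-out range of 4 without sham-1 to 10 without CLP-3 risen. Il1r1, the IL-1 receptor, had 115, 112, 63.7 and 77.7 CPM in sham and 185, 470.2, 239 and 344 CPM in CLP and rose by 1.75, while Il1rap, the second chain of the same receptor, had a log2 fold change of -0.84 and fell. The antagonist Il1rn had 2.66, 3.14, 1.88 and 5.79 CPM in sham and 20.1, 329, 33.7 and 176 CPM in CLP, a log2 fold change of 5.36 (SE 1.01, adjusted p = 0.0171).

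Osmr, the receptor of oncostatin M, rose by 2.17, and the shared signalling chain Il6st by 0.39. Lifr, the receptor chain of leukemia inhibitory factor, had 377, 272, 288 and 286 CPM in sham and 129, 64.4, 107 and 78.5 CPM in CLP (log2 fold change -1.69, SE 0.22, adjusted p = 0.00552), the groups being far apart. The feedback inhibitors rose too. Socs3 was among the 8 genes with the smallest p, with 59.2, 39.4, 46.2 and 44.5 CPM in sham and 130.2, 156, 133 and 141 CPM in CLP, and had a log2 fold change of 1.56 (adjusted p = 0.000947). The 4 CLP mice lay close together in Socs3 and above all sham mice. Socs1 rose by 4.07 from 0.323 ± 0.117 CPM. Of the transcription factors, Cebpd rose by 2.16, while Stat3 (0.35, adjusted p = 0.0734) did not pass the test.

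Of 22 NF-kB genes, 9 rose and 1 fell, the latter the kinase gene Chuk (-0.33). The risen ones included inhibitors of the pathway, Tnfaip3 (3.39), Zc3h12a (1.95), Nfkbie (0.67) and Tnip1 (0.64). Relb (1.86) and Nfkb2 (1.07), the subunits of the non-canonical pathway, also rose. Rela and Nfkb1, the subunits of the canonical pathway, had log2 fold changes of -0.18 and 0.09 and did not pass. The left-out range of risen NF-kB genes was 1 without sham-1 or sham-2 to 13 without CLP-3.

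Cxcl1 and Cxcl2, chemokines that draw neutrophils, were higher, and Cxcl10 was lower. Of 22 chemokines and receptors, 7 rose and 1 fell (3 without CLP-3), with a left-out range of 6 without CLP-3 to 8 without CLP-4 risen. Cxcl1 had 59.6, 69.8, 50.1 and 61.7 CPM in sham and 231, 338, 192 and 375 CPM in CLP and rose by 2.23. Cxcl2 rose by 3.72, Cxcl13, which attracts B cells, by 4.51, Cxcl14 by 3.71 and Ccl6 by 2.91. Cxcl10, which attracts T cells and is induced by interferon, fell (-1.38), and Cxcl9 had -1.43 without passing (adjusted p = 0.0688).

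Genes induced by interferons and those of antigen presentation were in part lower in CLP. Of 34 interferon-stimulated genes, 0 rose and 8 fell, with a median log2 fold change of -0.35. The left-out range was 3 without sham-1 to 14 without CLP-3 fallen. Bst2, which tethers budding virus, had 109, 94.5, 98.6 and 88.5 CPM in sham and 50.7, 24.5, 55.7 and 31.2 CPM in CLP, a log2 fold change of -1.26 (SE 0.24, adjusted p = 0.0162), and each CLP mouse was below each sham mouse. Also lower were Ifit3 (-1.44), Mx1 (-1.34), Gbp7 (-1.01), Oasl1 (-0.88), Isg15 (-0.72) and the transcription factor Irf7 (-0.64). The receptor-side factors Stat2 and Irf9 had 0.20 and -0.31 and did not pass.

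Of the 7 tested genes of MHC class II, which presents peptides to T cells, 4 fell and none rose, and 6 fell without CLP-3. Without any other single mouse, 4 fell. Cd74, the invariant chain, had 34.4, 27.3, 37.7 and 41.7 CPM in sham and 15.5, 11.5, 20.4 and 8.67 CPM in CLP (log2 fold change -1.32, adjusted p = 0.0158). H2-Aa, H2-Eb1 and H2-Ab1 had log2 fold changes of -1.72, -1.6 and -1.55. Markers of B cells, which also express these genes, were lower in sum. They summed to 1.93, 0.571, 2.03 and 0.626 CPM in CLP-1 to CLP-4 and to 2.58 to 4.59 CPM in sham, and 0 of the 4 tested fell, against 2 without CLP-3. Their part in the fall of MHC class II was not tested.

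Markers of neutrophils were higher in all 4 septic livers. Of 18 listed markers 14 were tested, and of these 12 rose and 0 fell (1 without CLP-3), with a median of 2.47. At least 10 rose with any 1 mouse left out, and the lowest log2 fold change was -0.77, which did not pass. S100a9, a calcium-binding protein of neutrophils, had 2.4, 2.04, 2.23 and 2.53 CPM in sham and 12.7, 16.6, 13.1 and 11.7 CPM in CLP. Its log2 fold change of 2.55 had the second smallest p of all genes (SE 0.14, adjusted p = 7.79e-05). S100a8, its partner, followed with 2.84 (adjusted p = 0.000139). The granule genes Ngp and Ltf rose by 5.98 and 5.66 from 0 to 4 reads in each sham mouse, and Mmp8 by 3.6. With so few sham reads, Ngp and Ltf passed the filter on low counts only through CLP, so their rises add no separate support. All together, these markers summed to 40.5, 58.3, 46.7 and 42.3 CPM in CLP-1 to CLP-4 and 9.06 to 12.4 CPM in sham. The list score, the mean log2 CPM of its genes less the sham mean, was 1.80, 2.33, 2.16 and 2.03, so that the CLP mice lay close together.

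Kupffer cell markers were less uniform. Of 15 markers (median 0.29), 2 rose (left-out range 1 without sham-1 to 2 without most), Marco and Cd163, both scavenger receptors. Marco had 7.62, 6.09, 19.5 and 6.33 CPM in sham and 54.5, 87.1, 30.7 and 60.6 CPM in CLP (2.56, adjusted p = 0.0165), and Cd163 had 1.41. Defining genes such as Clec4f (-0.28), Vsig4 (0.24), Timd4 (0.40) and Adgre1 (0.29) did not pass.

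Endothelial genes that passed were higher. Of 21 markers, 8 rose and 0 fell, with a left-out range of 4 without CLP-2, sham-1 or sham-2 to 6 without CLP-1 or CLP-4 risen. Without CLP-3, 5 rose, and the list score was 0.504, 0.459, 0.554 and 0.098 in CLP-1 to CLP-4. Lyve1, a hyaluronan receptor of sinusoids, had 2.92, 3.76, 3.73 and 6.39 CPM in sham and 15.3, 36.8, 12.5 and 18.2 CPM in CLP, a log2 fold change of 2.29 (SE 0.39, adjusted p = 0.0136). Vwf rose by 1.5, Pecam1 by 1.11 and Flt1 by 0.71. The sinusoidal genes Stab2 (0.06) and Kdr (-0.33) did not pass. Jam2, a junction protein of endothelium that is on no list, had 6.47, 6.68, 6.89 and 5.98 CPM in sham and 19.1, 24.2, 18.7 and 16.9 CPM in CLP and rose by 1.6 (adjusted p = 0.000447).

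Of 7 bile duct markers, 4 rose (left-out range 0 without CLP-4, sham-1, sham-2, sham-3 or sham-4 to 4 without CLP-1 or CLP-3), among them Sox9 (2.13) and Krt19 (1.44). Of 18 stellate cell and fibroblast markers, 3 rose (left-out range 1 without CLP-2, sham-1, sham-2 or sham-4 to 5 without CLP-4), Timp1 (3.8), Col1a2 (1.47) and Dcn (0.78). CLP-3 had the highest Col1a2, with 13.1, 8.75, 24.9 and 4.92 CPM in CLP-1 to CLP-4 and 4.08 to 5.15 CPM in sham. Without it Timp1 was at 3.60 (adjusted p = 0.00442), Col1a2 at 0.94 (adjusted p = 0.0409) and Dcn at 0.67 (adjusted p = 0.0360).

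**Figure D4:**
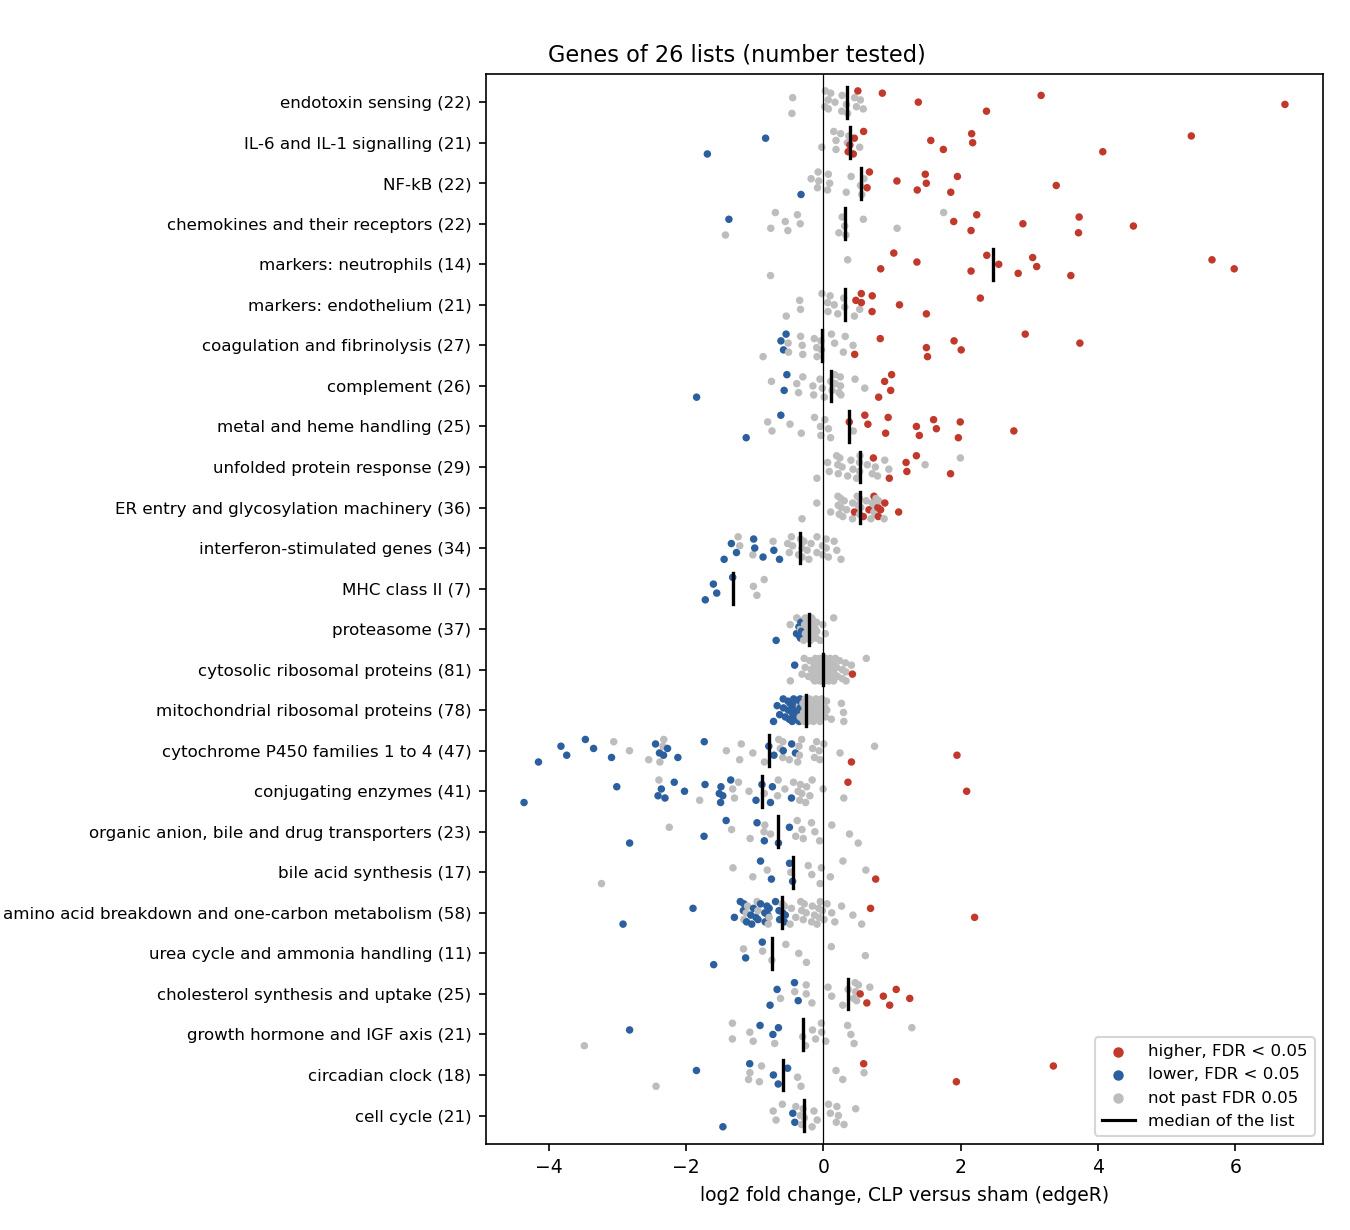
log2 fold change of CLP versus sham of each tested gene in 26 lists (number tested in parentheses), red where higher and blue where lower at a false discovery rate of 0.05, grey otherwise, with a black bar at the list's median. Neutrophil markers have the highest median, at 2.47, and MHC class II the lowest, at -1.32, and cytosolic ribosomal proteins stay near 0 while mitochondrial ones lie lower.

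Acute phase proteins, the main product of the inflamed liver, had 25 of 28 tested genes risen and none fallen. Hpx had 14747, 12968, 13486 and 15077 CPM in sham and 36321, 60245, 24696 and 54854 CPM in CLP (1.65, adjusted p = 0.0109). Crp, the classical human acute phase protein, had 0.41 (adjusted p = 0.108), and Hamp, the iron hormone hepcidin, had -0.49 (adjusted p = 0.162), neither past the test. Neighbours moved together in 2 clusters of 4 or more related genes. Runs of 5 neighbours called in 1 direction also occurred outside such families, on chromosomes 8, 9, 13 and 18. The 5 tested neighbours Serpina3h, Serpina3i, Serpina3k, Serpina3m and Serpina3n on chromosome 12 (104247896 to 104414329) all rose, as did Saa3, Saa4, Saa1 and Saa2 on chromosome 7 (46711998 to 46754314). Saa1 and Saa2, and the Serpina3 copies, are similar enough in sequence for reads to be shared between them, so that the values of single members are uncertain, as are those of the Mup, Gsta and Cyp2c families below.

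Of 24 other plasma protein genes, 2 rose and 5 fell (left-out range 2 without CLP-4, sham-1, sham-2 or sham-3 to 8 without CLP-3). Alb had 40841, 39336, 47792 and 57610.0 CPM in sham and 23778, 15218, 24082 and 22591 CPM in CLP, a log2 fold change of -1.12 (adjusted p = 0.0143). Apoa2 (-0.91), Ttr, which carries thyroid hormone, (-0.60) and Serpina1d (-0.83) fell as well, while Trf, the iron carrier transferrin, rose (0.91). Serpina6, the corticosteroid carrier, had 215, 225, 233 and 271 CPM in sham and 24.2, 0.428, 39.9 and 1.52 CPM in CLP-1 to CLP-4. Its log2 fold change of -3.81 did not pass (adjusted p = 0.0518), although each CLP mouse was below each sham mouse.

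The genes that make, fold and export secreted proteins rose in part, with large differences between mice. Of 29 genes of the unfolded protein response, 6 rose and 0 fell (median 0.53), and of 36 genes of ER entry and glycosylation, 9 rose and 0 fell (median 0.54). The left-out ranges were 0 without CLP-4, sham-1, sham-2 or sham-3 to 19 without CLP-3 of the first list and 0 without CLP-4, sham-1, sham-2, sham-3 or sham-4 to 29 without CLP-3 of the second. The scores of the unfolded protein response were 0.49, 1.09, 0.07 and 0.88 in CLP-1 to CLP-4 and -0.13 to 0.08 in sham, so that CLP-3 lay within sham.

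Creld2, an ER chaperone gene, had 47, 38, 54.9 and 32 CPM in sham and 93.2, 285, 53.1 and 189 CPM in CLP, CLP-3 being within sham, and rose by 1.85 (SE 0.49, adjusted p = 0.0396). Manf rose by 1.35, the chaperone Hyou1 by 1.22 and Dnajb9 by 1.2. Hspa5, which encodes the chaperone BiP, had 912, 729, 912 and 789.6 CPM in sham and 1365, 2372, 792 and 1944 CPM in CLP (0.95, adjusted p = 0.0529), and passed without CLP-3 (1.18, adjusted p = 0.00587). Sec24d, of the coat of ER export vesicles, rose by 0.74, Srprb, of the signal recognition particle receptor, by 1.1, and Stt3b, of the oligosaccharyltransferase, by 0.80. Ddit3 (0.35), Atf4 (0.19) and Trib3 (0.22), of the stress branch of the response, did not pass. Of 16 cytosolic and mitochondrial heat shock chaperones, 0 rose and 2 fell, Hspe1 (-0.56) and Hspa4 (-0.29), with a left-out range of 0 without most to 5 without CLP-3 fallen.

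Coagulation genes rose in part, while the share that fell was near that of all genes. Of 27 tested, 8 rose (29.6%, against 9.26% of all genes) and 3 fell (11.1%, against 8.99%). The left-out ranges were 3 without sham-1 to 8 without CLP-3 risen and 0 without CLP-4, sham-1, sham-2 or sham-3 to 6 without CLP-3 fallen. Thbd, the thrombin receptor thrombomodulin of endothelium, had 1.77, 1.3, 1.56 and 1.7 CPM in sham and 6.99, 26.5, 9.56 and 5.81 CPM in CLP, a log2 fold change of 2.94 (SE 0.50, adjusted p = 0.0139). Procr, the protein C receptor, rose by 1.9. Proc, the hepatocyte gene of protein C itself, fell (-0.58), as did F7 (-0.54) and F3, the tissue factor that starts clotting (-0.62). F11 rose by 1.52. The genes of prothrombin (F2, -0.13) and of factors V (F5, -0.10) and X (F10, -0.33) did not pass.

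Of 26 complement genes, 4 rose (left-out range 0 without sham-1 or sham-2 to 6 without CLP-3) and 3 fell (left-out range 0 without sham-1 to 4 without CLP-3). C3, the central component, had 14285, 15444, 13933 and 18124 CPM in sham and 28438, 36536, 21398 and 35530.0 CPM in CLP (0.98, adjusted p = 0.0172), and Cfb (0.89), C4bp (0.81) and Cd55 (0.99) rose. Mbl2, a mannose-binding lectin, had 327, 305, 301 and 363 CPM in sham and 140.4, 36.9, 123 and 59.5 CPM in CLP and fell (-1.85, adjusted p = 0.0209), and C8b (-0.57) and C8g (-0.53), of the membrane attack complex, fell less. The list's median of 0.12 turned to -0.06 with library size alone.

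Genes of metal handling rose in large share. Of 25, 12 rose and 2 fell (3 without CLP-3), with a left-out range of 4 without sham-1 to 13 without CLP-3 risen. Slc39a14, a zinc and iron importer, had 355, 374, 281 and 420.3 CPM in sham and 644, 804, 513 and 789 CPM in CLP and rose by 0.94 (adjusted p = 0.0148). The metallothioneins Mt1 and Mt2 rose by 1.6 and 1.99, and the iron transporter Slc11a2 by 1.4. Ftl1, the light chain of the iron store ferritin, fell (-0.62). Smad7, an inhibitor of BMP and TGF-beta signalling, had 13.9, 13.8, 13.5 and 12.8 CPM in sham and 6.69, 6.32, 5.46 and 6.3 CPM in CLP, and its log2 fold change of -1.12 was among the 8 smallest p (SE 0.09, adjusted p = 0.000719). Id1, another BMP target, had -0.75 (adjusted p = 0.0731).

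Drug-metabolizing enzymes fell in large share. Of 47 tested cytochromes P450 of families 1 to 4, 2 rose and 17 fell, with a median of -0.79. Of 41 conjugating enzymes, 2 rose and 18 fell (median -0.89). The left-out ranges of fallen genes were 3 without sham-1 to 22 without CLP-3 for P450 and 7 without sham-1 to 27 without CLP-3 for conjugating genes. Cyp1a2, which oxidizes caffeine, had 419, 228, 323 and 195 CPM in sham and 29.9, 7.61, 67.1 and 9.39 CPM in CLP, a log2 fold change of -3.35 (SE 0.73, adjusted p = 0.0237). Cyp2a5 fell with -3.82, Cyp2f2 with -2.39 and Cyp3a25 with -1.73. Cyp3a11 had 1802, 1491, 2871 and 2424 CPM in sham and 533, 21.3, 457 and 23.6 CPM in CLP, and at -3.05 did not pass (adjusted p = 0.0815), nor did it without CLP-3 (-3.48, adjusted p = 0.0833). Cyp4a31 was the exception with a large rise (1.95).

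Among the conjugating enzymes, Gstm1, a glutathione transferase, had 896, 808, 1308 and 1125 CPM in sham and 238, 95, 411 and 92 CPM in CLP (-2.31, adjusted p = 0.0218). Gsta2 (-4.36) and Gsta4 (-3.01) fell further at lower levels, and Ugt1a1, the bilirubin conjugating enzyme, fell with -1.72 and Ugt2b1 with -2.41. Gstp2 rose (2.09). The largest falls by the rule for named genes were those of Inmt, an N-methyltransferase, and Car3, a carbonic anhydrase. Inmt had 393, 373, 541 and 329 CPM in sham and 9.54, 0.571, 35.4 and 1.21 CPM in CLP (-5.1, adjusted p = 0.0277), and Car3 909, 949, 923 and 554 and 13.7, 1.43, 99.3 and 2.1 CPM (-4.83, adjusted p = 0.0445), CLP-3 being highest of the CLP mice in both. Upp2 (-3.46), a uridine phosphorylase, Clec2h (-3.59), Gm4956 (-2.98) and Cyp2c40 (-3.47) were also among the 12 largest falls.

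Uptake and bile functions fell in part. Of 23 transporters of organic anions, bile and drugs, 0 rose and 7 fell (left-out range 2 without CLP-4, sham-1, sham-2 or sham-3 to 10 without CLP-3), led by Slco1a1, with 308, 250.03, 230.04 and 182 CPM in sham and 40.8, 16.7, 57.2 and 22 CPM in CLP (-2.82, adjusted p = 0.00793). Slc10a1, the bile acid importer, and Abcb11, the bile salt exporter, had -0.86 (adjusted p = 0.164) and -1.07 (adjusted p = 0.0647) and did not pass. Of 17 genes of bile acid synthesis, 1 rose and 4 fell (left-out range 0 without CLP-4, sham-1, sham-2 or sham-3 to 5 without CLP-1). Cyp7a1, its rate-limiting enzyme, had 158, 189, 73.7 and 177 CPM in sham and 40.8, 0, 21.1 and 0.402 CPM in CLP, which do not overlap, and was at -3.23 (adjusted p = 0.112). Cyp27a1, of the alternative route, fell (-0.91).

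Enzymes of amino acid breakdown fell in a large share. Of 58 tested, 2 rose and 24 fell, with a median of -0.60, with a left-out range of 5 without sham-1 to 29 without CLP-3 fallen. Hgd, of tyrosine breakdown, had 542, 479.99, 455 and 612 CPM in sham and 313, 115, 332 and 171 CPM in CLP, a log2 fold change of -1.16 (SE 0.32, adjusted p = 0.0379). Qdpr, which regenerates the cofactor tetrahydrobiopterin, fell as well (-0.98). Gnmt (-1.16) and Cth (-1.21), of methionine and cysteine metabolism, fell, while Mat1a, which makes S-adenosylmethionine, rose (0.69). Sdsl, a serine dehydratase-like gene, rose by 2.2. Tat (-0.33), which breaks down tyrosine, did not pass.

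Of 11 genes of the urea cycle and ammonia handling, 0 rose and 3 fell (left-out range 1 without CLP-4, sham-1, sham-2 or sham-4 to 5 without CLP-3). Otc had 429, 367, 394 and 445 CPM in sham and 189.8, 40.7, 211 and 98.9 CPM in CLP (-1.6, adjusted p = 0.0424), and Cps1, the first enzyme of the cycle, had -0.88 (adjusted p = 0.0571). Ass1, of the same cycle, was counted at only 0.685 ± 0.231 CPM in sham, so that its value says little. Of 33 genes of glucose metabolism, 3 rose and 9 fell (left-out range 2 without sham-2 to 11 without CLP-3). G6pc, the last step of glucose output, fell with -1.43 (adjusted p = 0.0107), and Pygl (-0.79) and Gys2 (-0.71), which break down and build glycogen, both fell, while Pck1 (-0.31) did not pass.

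Lipid synthesis genes changed in both directions in the cholesterol branch and mostly fell, where they passed, in the fatty acid branch. Of 25 genes of cholesterol synthesis and uptake, 6 rose and 4 fell (left-out range 1 without sham-1 to 10 without CLP-3 risen and 2 without CLP-4 or sham-1 to 5 without CLP-1 fallen), and of 19 of fatty acid synthesis, 1 rose and 10 fell (left-out range 2 without CLP-4 or sham-1 to 11 without CLP-3 fallen). Sqle (1.26) and Hmgcs1 (0.97) rose, while Sc5d (-0.78) and Tm7sf2 (-0.67) of later steps fell. Of the regulators, Srebf2 rose and Srebf1 fell, and their part in these counts was not tested. Srebf2, which drives cholesterol genes, had 55.6, 61.6, 57.5 and 56.6 CPM in sham and 95.6, 101, 76.5 and 96.7 CPM in CLP (0.68, adjusted p = 0.00726). Srebf1, which drives fatty acid genes, had 344, 334, 359 and 301 CPM in sham and 139.9, 44.9, 89.5 and 73.6 CPM in CLP (-1.94, SE 0.30, adjusted p = 0.00950). Mlxipl, the carbohydrate-responsive factor ChREBP, fell with -1.19. Among 22 apolipoprotein genes, 2 rose and 5 fell (left-out range 2 without sham-1 to 7 without CLP-3 fallen), with Apoe (-0.84), Apoc3 (-0.82) and Lipc (-1.89), the hepatic lipase, lower.

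Of 28 liver transcription factors and nuclear receptors, 1 rose and 3 fell (left-out range 1 without CLP-4, sham-1, sham-2 or sham-3 to 4 without CLP-1 or sham-4 fallen). Besides the lipid regulators, Ppara, the receptor that drives fatty acid oxidation, fell (-0.83). Hnf4a (0.05), the xenobiotic receptor gene Nr1i2 (-0.20) and Cebpa (-0.51, adjusted p = 0.0740) did not pass. In the pyruvate dehydrogenase list, 1 of 13 rose, Pdp1, an activating phosphatase (2.18), and 6 fell (left-out range 0 without CLP-4, sham-1, sham-2 or sham-3 to 6 without CLP-3). Pdk4, an inhibiting kinase, had 2.55, 2.68, 2.84 and 2.96 CPM in sham and 2.67, 18.1, 149 and 9.34 CPM in CLP, highest in CLP-3, and at 4.03 did not pass (adjusted p = 0.0538). Without CLP-3, Pdk4 was at 1.84 (adjusted p = 0.0454). Of 24 genes of fatty acid oxidation and ketogenesis, 1 rose and 0 fell (left-out range 0 without most to 5 without CLP-3 fallen). Crat, a carnitine acetyltransferase, was the risen one (1.27).

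Ribosomal, respiratory chain and proteasome genes that passed were mostly lower. Of 81 cytosolic ribosomal protein genes, 1 rose (left-out range 0 without most to 3 without CLP-1) and 1 fell (left-out range 0 without CLP-4, sham-1, sham-2 or sham-3 to 2 without CLP-3), with a median of 0.00. Of 78 mitochondrial ones, 0 rose and 28 fell, with a median of -0.26 and a left-out range of 7 without CLP-4, sham-1 or sham-3 to 39 without CLP-3. Mrps35 had 18.9, 20.2, 23.2 and 18.6 CPM in sham and 12.8, 10.4, 15.3 and 10.2 CPM in CLP (-0.73, adjusted p = 0.0155). The nuclear genes of the respiratory chain fell in each complex, 20 of 36 of complex I, 2 of 4 of II, 8 of 9 of III, 6 of 11 of IV and 10 of 16 of ATP synthase, and none rose. The left-out range was 4 without CLP-4 or sham-1 to 27 without CLP-3 for complex I. It was 1 without sham-1 to 4 without CLP-3 for complex II, 1 without CLP-4, sham-1, sham-2 or sham-3 to 8 without CLP-3 for complex III, 1 without CLP-4, sham-1, sham-2 or sham-3 to 9 without CLP-3 for complex IV and 0 without CLP-4, sham-1 or sham-3 to 13 without CLP-3 for ATP synthase. Of 37 proteasome genes, 0 rose and 7 fell (left-out range 1 without CLP-4, sham-1, sham-2 or sham-3 to 14 without CLP-3), the largest fall being that of the immunoproteasome gene Psmb10 (-0.69). With library size alone, the median of cytosolic ribosomal proteins was -0.17.

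Hormone and clock genes changed in part. Of 21 genes of the growth hormone and IGF axis, 0 rose and 4 fell (left-out range 1 without CLP-4, sham-1, sham-2 or sham-3 to 5 without CLP-1, CLP-3 or sham-4). Ghr, the growth hormone receptor, fell (-0.92, adjusted p = 0.0209), while Igf1 (-0.30), Igfals (-1.07) and Socs2 (-1.02) did not pass. Of 20 glucocorticoid targets, 5 rose (left-out range 2 without sham-1 to 6 without CLP-3), with Fkbp5 at 2.04 and Zbtb16 at 1.69, and 4 fell (left-out range 2 without CLP-4, sham-1, sham-2 or sham-3 to 4 without CLP-2 or CLP-3), with Dusp1 at -1.19 and G6pc at -1.43. Of 19 secreted stress factors, 5 rose and 0 fell (left-out range 0 without sham-1 to 6 without CLP-3 risen), including Fgf21 (2.11), Hgf (1.29) and Angptl4 (1.24). Gdf15, another stress hormone, had -1.72 (adjusted p = 0.0564).

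Among 18 circadian clock genes, 3 rose and 5 fell (left-out range 2 without CLP-3, CLP-4, sham-1, sham-2 or sham-3 to 3 without CLP-1, CLP-2 or sham-4 risen and 1 without sham-1 to 9 without CLP-3 fallen). Arntl, which encodes BMAL1 of the positive limb, had 4.07, 2.23, 2.14 and 2.08 CPM in sham and 7.42, 16.2, 5.72 and 11 CPM in CLP, a log2 fold change of 1.94 (SE 0.36, adjusted p = 0.0155), and its relative Npas2 rose by 3.35. Per3 (-1.85), Bhlhe40 (-1.07), Nr1d2 (-0.73) and Cry2 (-0.66), of the negative limb, fell. Dbp, an output gene, had -2.44 (adjusted p = 0.0673). The hour of collection of each mouse is not given in the sources used here.

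Cdkn1a led the growth arrest genes. Cdkn1a, the cell cycle inhibitor p21, had 0.629, 0.565, 0.638 and 0.808 CPM in sham and 5.12, 108, 13.6 and 30.1 CPM in CLP-1 to CLP-4, a log2 fold change of 5.87 (SE 1.06, adjusted p = 0.0158). Of 18 genes of growth arrest and p53, 3 rose and 1 fell (left-out range 0 without sham-1 to 4 without CLP-3 risen), and the p53 target Mdm2 (0.19) did not pass. Of 21 cell cycle genes, 0 rose and 3 fell (left-out range 0 without CLP-2, CLP-4 or sham-1 to 6 without CLP-3), with Ccnd1, the cyclin of entry into the cycle, at -1.46 (adjusted p = 0.0227). Among 15 immediate early genes, 2 rose and 2 fell, Ier3 (2.68) and Junb (0.65) against Dusp1 and Maff (-1.11), with a left-out range of 0 without sham-1 or sham-2 to 3 without CLP-3 risen. Of 18 genes of inflammasomes and cell death, 3 rose (left-out range 2 without CLP-4, sham-1, sham-2, sham-3 or sham-4 to 3 without CLP-1, CLP-2 or CLP-3), among them Gsdmd (0.85) and Il1b (1.35), and 3 fell (left-out range 2 without sham-1, sham-2 or sham-4 to 3 without CLP-1, CLP-2, CLP-3, CLP-4 or sham-3), among them Il18 (-0.91). Of 26 genes of peroxide and thiol defence, 1 rose, Gpx3 of the plasma (3.02), and 8 fell (left-out range 2 without CLP-4, sham-1 or sham-2 to 10 without CLP-3), among them Nfe2l2, which encodes NRF2 (-0.46).

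Some zonal genes fell at either end of the lobule. Of 14 pericentral genes, 4 fell and 0 rose (left-out range 1 without sham-1 to 8 without CLP-3 fallen, median -0.75), and of 13 periportal genes, 5 fell and 0 rose (left-out range 1 without sham-1 to 6 without CLP-3 fallen, median -0.53). Etnppl, a periportal enzyme, had 93.8, 86.8, 80.3 and 219.7 CPM in sham and 20.8, 4.61, 27.8 and 9.66 CPM in CLP (-2.92, adjusted p = 0.0212), with sham-4 far above the other sham mice.

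The calls of single genes also rested on single mice. Of 179 genes named here that passed, 74 also passed with each of the 8 mice left out in turn. Among these were A2m, Saa3, Reg3g, S100a9, Cxcl1, Il1r1, Socs3, Hpx, Lyve1, Jam2, Arntl and Srebf2 of the risen genes and Lifr, the interferon-induced Isg15 and Irf7, Cd74, Slco1a1, Srebf1, Smad7, Alb and G6pc of the fallen ones. The others, among them Cd14, Cd28, Cdkn1a, Inmt, Car3 and Cyp1a2, lost their call or were no longer tested without at least 1 mouse. Leaving out sham-1 kept 76 of the calls, sham-2 101, sham-3 103, sham-4 125, CLP-1 158, CLP-2 140, CLP-3 177 and CLP-4 100. Of named genes that did not pass with all mice, Abcb11, Ass1, Cd4, Cxcl9, Dbp and Ddit3 passed without CLP-3, at log2 fold changes of -1.24, -1.56, -1.34, -2.03, -3.45 and 0.48 and adjusted p of 0.0465, 0.0459, 0.0321, 0.0107, 0.0140 and 0.0401. So did Irf9, Mdm2, Pck1 and Serpina6, at -0.37, 0.26, -0.45 and -4.70 and adjusted p of 0.0276, 0.0458, 0.0399 and 0.0323, besides Hspa5 and Pdk4. Npas2 and Tlr6 were not tested without CLP-3. No named gene that passed turned its direction in any of these fits.

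**Figure D5:**
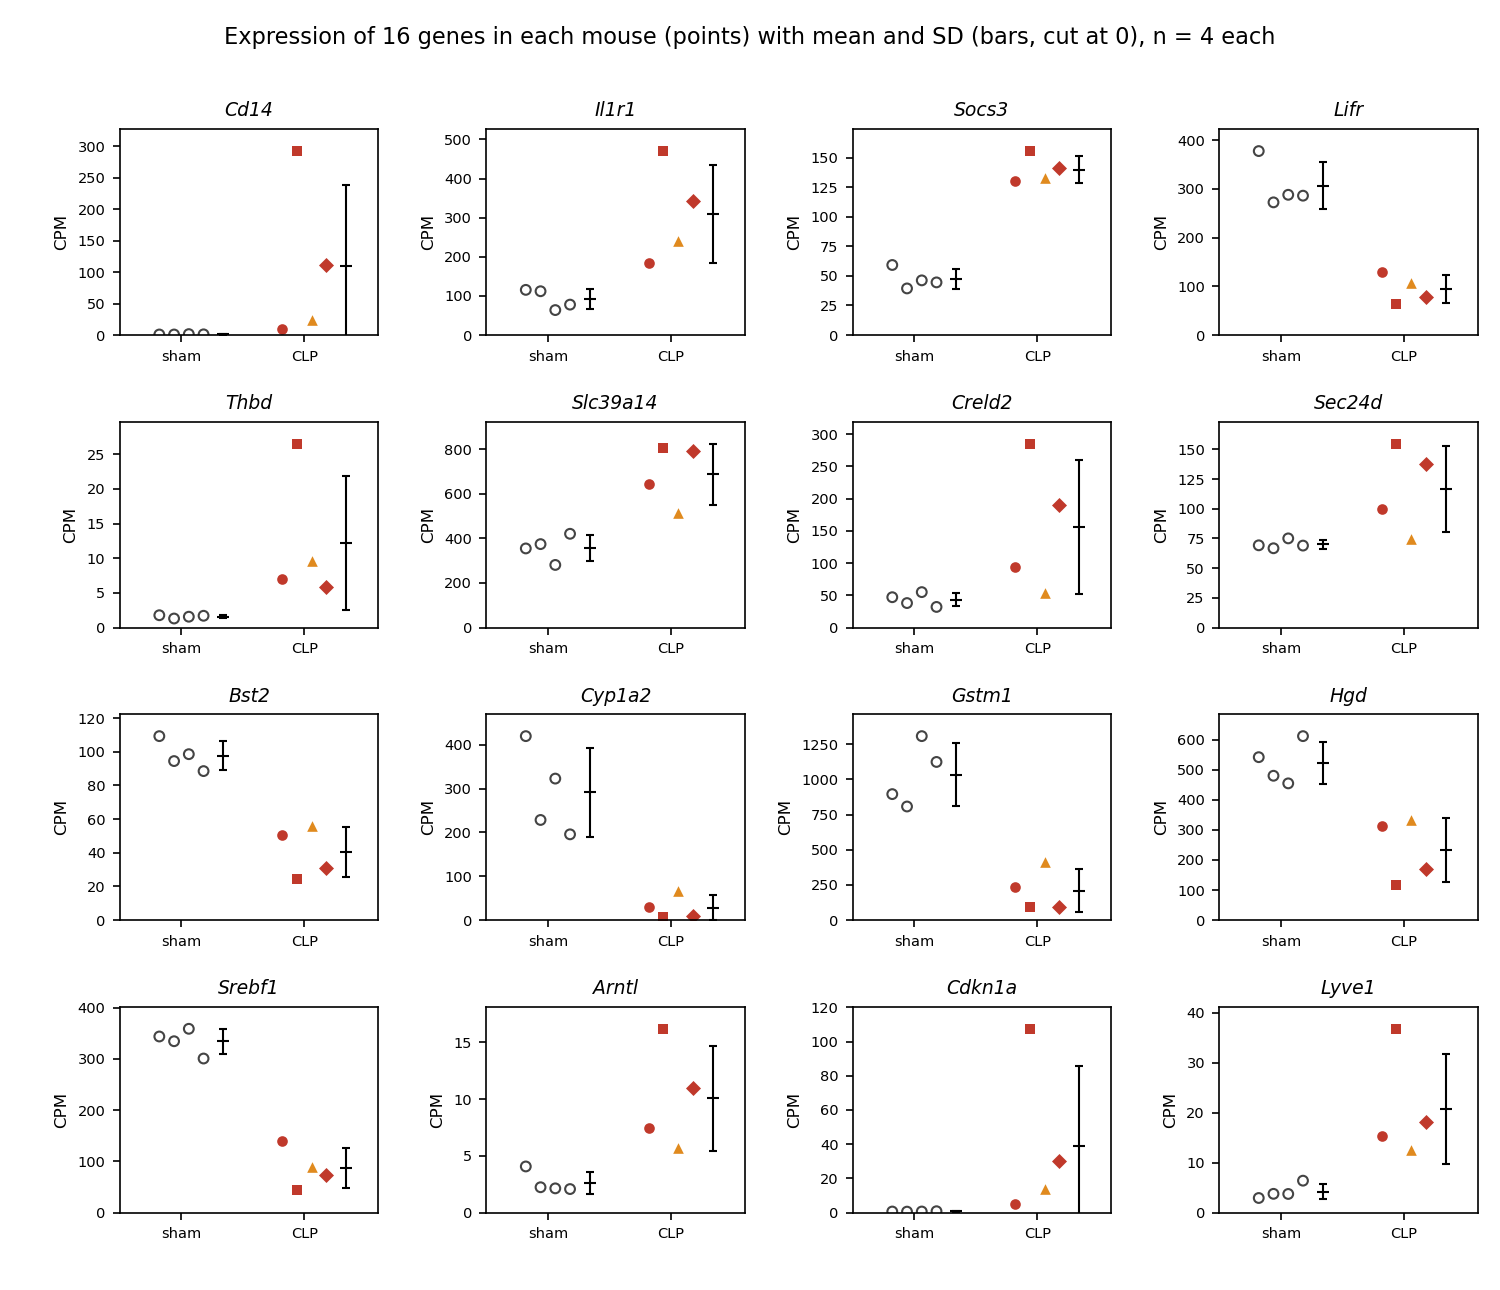
CPM (y axis, from 0) of 16 genes in each sham mouse (open circles) and in CLP-1 (circle), CLP-2 (square), CLP-3 (triangle) and CLP-4 (diamond), with the mean and SD of each group as bars, n = 4 each. Socs3, Lifr and Bst2 do not overlap between the groups, and the CLP mice lie close together in Socs3. Cd14 and Cdkn1a range widely among CLP mice.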

How the data were processed

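RNA from 8 whole livers, 4 CLP and 4 sham mice, was read as TruSeq RNA v2 libraries, a kit that does not mark strand. Per the study's methods, poly(A) RNA was sequenced as paired ends. Per the submitters' processing notes, the authors aligned the reads with STAR 2.5 to mm10 and counted them with Subread featureCounts 1.5.0-p1, and they tested with DESeq2. The gene annotation and the strand setting of the counting are not given in the sources used here, so overlapping and antisense genes cannot be told apart. The deposited values are raw read counts per gene, and 0 columns were left without a sample.

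Samples were grouped by their labelled titles. The members and the gene lists were chosen with earlier results of these data known. Library sizes were scaled by TMM in edgeR 4.0.16 (R 4.3.3), genes were kept by filterByExpr with a minimum count of 10, and CLP was compared with sham by the robust quasi-likelihood test, with Benjamini-Hochberg adjustment at 0.05. Of 25611 genes, 7053 had no reads in the 8 libraries and 13079 were tested. Standard errors (SE) of fold changes are on the log2 scale. They were derived from the test, as the absolute log2 fold change divided by the square root of its F statistic. The log2 CPM for scores and principal components used a prior count of 2, and that for the SDs added 0.05 to each CPM. The labels do not say whether mice were litter mates or processed on set days. The p-values treat the mice as independent, and any shared litter or day is unknown. In simulated counts for the 13079 genes, only 200 were changed. Of these, 80 of 100 genes changed 2-fold and 96 of 100 changed 4-fold were recovered, with 9 wrong calls. Whether these rates hold for the 8 livers, with 2387 calls and more spread in CLP than in sham, was not tested.

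Genes were named by a rule. It took, of genes past the test with at least 5 CPM in a group and no overlap, the 12 largest rises, the 12 largest falls and the 8 smallest p, then the 10 largest CPM gains and losses and, in each list, the 2 smallest p in each direction. Further list members are named with their values. Alternatives were other scaling, filters, tools (DESeq2 1.42.0, limma 3.58.1 with voom), thresholds, all 12 libraries in 1 fit, a replicate block and leaving out each mouse. Some genes are not reported here. Near-identical families are uncertain. Ass1 was counted at far below its usual rank in liver, and the listed hemoglobin genes were counted at 0 reads. Promoter sequences are those of RefSeq on GRCm38.p6. Same-numbered CLP and sham mice were not shown to be paired. Fewer than 6 mice a group allow no correlation across mice.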

Additional observations from a re-analysis of the deposited data

Results flagged for a closer look

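In groups of 4 mice, a value was flagged when its gap to the nearest mouse was over the 95% critical share of the group's range (Dixon's test), which chance gives in about 1 in 20 groups. Of 222 groups tested, the scores of gene lists and the CPM of single genes, 11 were flagged. No cause of any of them was tested.

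The 3 CLP flags of lists were these. The skeletal muscle score was 5.079 in CLP-3 and -0.345 to -0.082 in the other CLP mice. The Kupffer cell score was 0.732 in CLP-1 and 0.324 to 0.371 in the others. The ATP synthase score was -0.155 in CLP-3, nearest to sham, and -0.449 to -0.418 in the others.

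Among sham mice, the bile duct score was -0.153 in sham-2 and 0.039 to 0.059 in the others, and the ATP synthase score was 0.111 in sham-3 and -0.055 to -0.027 in the others.

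Among single genes, Alb had 15218 CPM in CLP-2 and 22591 to 24082 CPM in the other CLP mice, and Car3 had 99.3 CPM in CLP-3 and 1.43 to 13.7 CPM in the others. Sham-4 was flagged for 4 genes. It had 553.5 CPM of Car3 against 909 to 949 CPM in the other sham mice, and 219.7 CPM of Etnppl against 80.3 to 93.8 CPM. It also had 4764 CPM of Mup3, a major urinary protein, against 7607 to 8145 CPM, and 3512 CPM of Scd1, a desaturase, against 1516 to 1771 CPM.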

How the results depend on the processing

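With 1 mouse left out, the 2387 calls ranged from 533 to 3556, the 1211 higher from 285 to 1853 and the 1176 lower from 248 to 1703. The lowest counts came without sham-1 and the highest without CLP-3. Library size alone gave 702 higher genes (1617 lower). A single fit of all 12 libraries gave 367 calls (216 higher and 151 lower). A false discovery rate of 0.01 gave 176 (111 and 65), and asking for a 2-fold change as well gave 710 (495 and 215). DESeq2 gave 3428, voom 3054, no filter 1907 and the newer quasi-likelihood fit of edgeR, chosen after seeing the data, 2473. The other scalings, filters and settings kept the count within 1.5 times.

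The deviations of same-numbered CLP and sham mice had correlations of 0.087, -0.055, 0.087 and 0.005, which neither show nor exclude pairing. A replicate block gave 1687 calls, 793 higher and 894 lower. CLP-1 correlated best with sham-1 and CLP-3 with sham-3, but CLP-2 with sham-4 and CLP-4 with sham-1.

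Of the 179 named genes that passed, DESeq2 lost 3, voom 7, library size alone 15, the block 37, a false discovery rate of 0.01 lost 143 and the fit of 12 libraries 130, and none reversed. Of genes that did not pass, 3 named ones turned sign with library size alone, Hnf4a to -0.12, Nfkb1 to -0.083 and Stab2 to -0.10. Library size alone turned the sign of 7 list medians, namely apolipoproteins, complement, cytosolic ribosomal proteins, fatty acid oxidation, glucocorticoid targets, secreted stress factors and inflammasomes, each of them between 0.001 and 0.123 before and between -0.17 and -0.05 after. Depth limits the genes near 1 CPM, whose counts are few per mouse. The cause of none of these shifts was tested.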
